A study of Mus musculus with 12 samples.

Results

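The 10 genes described here mark astrocytes and carry much of their transport work, and they were followed through the hippocampus of adult mice of 4 genotypes. The genes are Slc1a2, Slc1a3, Glul, Aqp4, Kcnj10, Gja1, Gjb6, Aldoc, Aldh1l1 and Sox9. They were taken by symbol from the deposited table of raw read counts, in which 55385 genes are listed, and each symbol matched 1 Ensembl gene. All 10 passed the filter on low counts that left 15905 genes to be tested, and their counts ran from 155 to 20321 per library. The groups were WT, Kcnip3 KO (Kcnip3 -/-), 5xFAD and Kcnip3 KO-5xFAD (5xFAD on the Kcnip3 -/- background), with 3 libraries each. RNA came from freshly dissected hippocampus, from the hemisphere opposite to that taken for proteomics. The animals' age beyond adult, their sex and their strain background are not stated in the labels, which also do not say whether the 3 libraries of a genotype are different mice, so p-values measure the spread between libraries, which may in part be technical.

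Kcnip3 encodes KChIP3, a neuronal calcium sensor also named calsenilin or DREAM, which accompanies Kv4 potassium channels at the membrane and acts as a transcriptional repressor in the nucleus. 5xFAD mice carry mutant human transgenes of familial Alzheimer's disease driven by Thy1 promoter sequences, which are active in neurons, and they develop amyloid plaques. The whole tissue was measured, so fewer astrocytes and less RNA per astrocyte cannot be told apart.

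Astrocytes clear glutamate from the synaptic cleft through Slc1a2 (GLT-1) and Slc1a3 (GLAST) and convert it to glutamine with glutamine synthetase, the product of Glul. Potassium released by firing neurons enters through Kir4.1, the product of Kcnj10, water moves through the aquaporin encoded by Aqp4 at the endfeet around vessels, and gap junctions built from connexin 43 (Gja1) and connexin 30 (Gjb6) join astrocytes into a network. Aldoc encodes the brain form of the glycolytic enzyme aldolase, Aldh1l1 encodes a folate enzyme used as a marker of the whole astrocyte population, and Sox9 encodes a transcription factor that sets glial identity. Several of these genes are not private to astrocytes: Kcnj10 and Glul are also used by oligodendrocytes, and Gja1 by leptomeningeal and vascular cells.

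The members are spread over the genome. On GRCm38, the assembly also known as mm10, Slc1a2 (ENSMUSG00000005089) spans chromosome 2, 102658659 to 102790784, which is 24.7 Mb from Kcnip3 on the same chromosome. Slc1a3 (ENSMUSG00000005360) spans chromosome 15, 8634124 to 8710764. Glul (ENSMUSG00000026473) and Kcnj10 (ENSMUSG00000044708) lie on chromosome 1, at 153899944 to 153909723 and 172341210 to 172374085. Aldoc (ENSMUSG00000017390) and Sox9 (ENSMUSG00000000567) lie on chromosome 11, at 78322968 to 78327781 and 112782224 to 112787760. Gja1 (ENSMUSG00000050953) spans chromosome 10, 56377330 to 56402513, and Gjb6 (ENSMUSG00000040055) chromosome 14, 57123303 to 57133611. Aldh1l1 (ENSMUSG00000030088) spans chromosome 6, 90486427 to 90600203, and Aqp4 is ENSMUSG00000024411. Exons of Aldh1l1, Slc1a2 and Glul overlap those of other annotated genes, the longest overlap being 499 bases with Gm15756 on the opposite strand from Aldh1l1. Those neighbours held few counts, at most 338 over all 12 libraries for Teddm2 beside Glul. The strand setting of the counting is not given in the sources used here, so reads from such overlaps cannot be assigned to a strand.

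KChIP3 is known to bind DNA at downstream regulatory elements, whose core is GTCA. Promoter windows of 300 bases (250 before to 50 after a transcription start) from RefSeq on GRCm38.p6 were available for 8 of the 10 members and were searched for GTCA on both strands, the reverse complement being TGAC. The core was in 7 of the 8, against 85.2% of the 32851 promoters of the same length. The windows of Gja1, Slc1a2 and Kcnj10 are shown because they hold the most and the fewest matches among the members, and because the values of Gja1 and Kcnj10 recur below. Gja1 and Slc1a2 held 5 matches each, a number reached by 7.48% of all promoters, and Kcnj10 held 0, as did 14.8% of all promoters. The 250 bases before each start are printed 5′ to 3′ on the gene's strand, with matches to GTCA or TGAC in capitals. Of the 5 matches of Slc1a2, 3 are in the printed part. The Slc1a2 window lies inside the gene span given above, well after the annotated gene start. The same holds for the window of Aldh1l1 (chr6:90550543-90550842) and for the second window of Aldoc. These windows describe starts within the gene, and the first annotated starts of Slc1a2 and Aldh1l1 were not searched.
Gja1 (chr10:56377050-56377299, plus strand): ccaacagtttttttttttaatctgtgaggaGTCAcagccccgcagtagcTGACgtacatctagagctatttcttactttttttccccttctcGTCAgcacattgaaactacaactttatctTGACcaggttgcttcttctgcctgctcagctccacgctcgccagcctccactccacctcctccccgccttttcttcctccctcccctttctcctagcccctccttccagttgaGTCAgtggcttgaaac
Slc1a2 (chr2:102706188-102706437, plus strand): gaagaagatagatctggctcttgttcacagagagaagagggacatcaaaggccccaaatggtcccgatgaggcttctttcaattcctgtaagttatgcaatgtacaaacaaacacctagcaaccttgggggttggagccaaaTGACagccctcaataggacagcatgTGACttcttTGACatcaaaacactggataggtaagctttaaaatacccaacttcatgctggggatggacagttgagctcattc
Kcnj10 (chr1:172340960-172341209, plus strand): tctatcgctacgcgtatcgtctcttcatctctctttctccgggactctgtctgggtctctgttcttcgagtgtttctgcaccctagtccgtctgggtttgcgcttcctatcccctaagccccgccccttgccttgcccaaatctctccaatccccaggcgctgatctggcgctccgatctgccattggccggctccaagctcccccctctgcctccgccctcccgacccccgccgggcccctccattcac

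The windows also differed in base composition. The GC content of the 300 bases was 63.7% for Kcnj10 with 21 CpG and 64.3% for Glul with 17 CpG. It was 45.7% for the window inside Slc1a2 with 1 CpG and 45.3% for Slc1a3 with 3 CpG. Over all promoters the medians were 52.7% GC and 7 CpG. The SOX core ACAAT was in 2 of the 8 members and in 31.0% of all promoters, its second form ACAAAG in 1 and in 18.7%, and the NFI half-site TTGGC in 4 and in 46.7%. The STAT motif TTCNNNGAA, a palindrome, was in 2 of the 8, counting either start of Aldoc, and in 8.3% of all. All of these motifs were searched on both strands, and each was counted separately, so matches of different motifs may share bases. A match is a description of the letters in the window and does not show binding.

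Before the results, the libraries were checked against their labels. They held 7664407 to 11310714 counts, and the members' counting error alone was 0.764% of the level for Slc1a2 and 7.1% for Sox9. Kcnip3 was at 158 to 162 CPM (counts scaled by TMM to a library of 1000000) in WT and 138 to 156 CPM in 5xFAD, against 63.4 to 125 CPM in Kcnip3 KO and 68.7 to 84.9 CPM in Kcnip3 KO-5xFAD, the highest knockout value being that of Kcnip3 KO replicate 3, which lay nearer to the lowest 5xFAD library than to the other 2 Kcnip3 KO libraries. Without that library edgeR called 0 members in each comparison that uses Kcnip3 KO. Whether libraries were exchanged was not tested. Thy1, whose promoter sequences drive the transgenes, went against the label in 2 libraries: it was at 2277 CPM in the library labelled WT replicate 3, against 747 and 887 CPM in the other 2, and at 926 CPM in the library labelled Kcnip3 KO-5xFAD replicate 2, against 3381 and 2592 CPM. The fold changes and calls below were therefore also computed without both. Levels in TPM, ratios and correlations were computed with all 12 libraries only. The choroid plexus transcript Ttr ranged from 83.5 CPM in the library labelled WT replicate 3 to 8724 CPM in 5xFAD replicate 3, and was also low, at 203 to 371 CPM, in 5xFAD replicate 2 and in Kcnip3 KO-5xFAD replicates 1 and 2. Markers of the dentate gyrus and pyramidal layers (Prox1, C1ql2, Wfs1 and Grik4) and all 10 astrocyte genes had counts in all 12 libraries. The regional markers varied, C1ql2 from 21.5 to 113 CPM and Prox1 from 11.6 to 45.0 CPM. In 5xFAD against WT, Grik4 (0.65 ± 0.17, edgeR adjusted p = 0.0489) and C1ql2 (1.22 ± 0.46, 0.141) were higher without overlap, while Prox1 and Wfs1 overlapped. In Kcnip3 KO against WT, Prox1 (0.85 ± 0.37) and Grik4 (0.41 ± 0.17) were higher without overlap, each with an edgeR adjusted p of 0.999. C1ql2 and Wfs1 overlapped there. Between Kcnip3 KO-5xFAD and either 5xFAD or Kcnip3 KO, each of these markers overlapped. The part of dissection in the members' values was not tested.

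On the TPM scale of the deposited log2 TPM table, which corrects for transcript length, the 10 genes covered a wide range of levels. Aldoc was highest at 1465 ± 149 TPM (SD over all 12 libraries) and Glul followed at 1386 ± 143 TPM. The ranges of these 2 enzymes overlapped, and Aldoc was the higher in 8 of 12 libraries. Slc1a2 was at 475 ± 41.6 TPM and Slc1a3 at 165 ± 17.4 TPM, and neither range overlapped with that of the gene above it. Kcnj10 was at 102 ± 31.4 TPM, Gjb6 at 94.5 ± 16.3 TPM and Aldh1l1 at 65.6 ± 7.26 TPM. Neighbours within that trio overlapped in range, although Gjb6 exceeded Aldh1l1 in 12 of 12 libraries. Gja1 at 39.0 ± 7.97 TPM and Aqp4 at 32.5 ± 7.45 TPM overlapped with each other, while Gja1 lay below Aldh1l1 and Sox9, at 17.6 ± 1.95 TPM, lay below Aqp4 in every library, without overlap of the ranges.

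**Figure D1:**
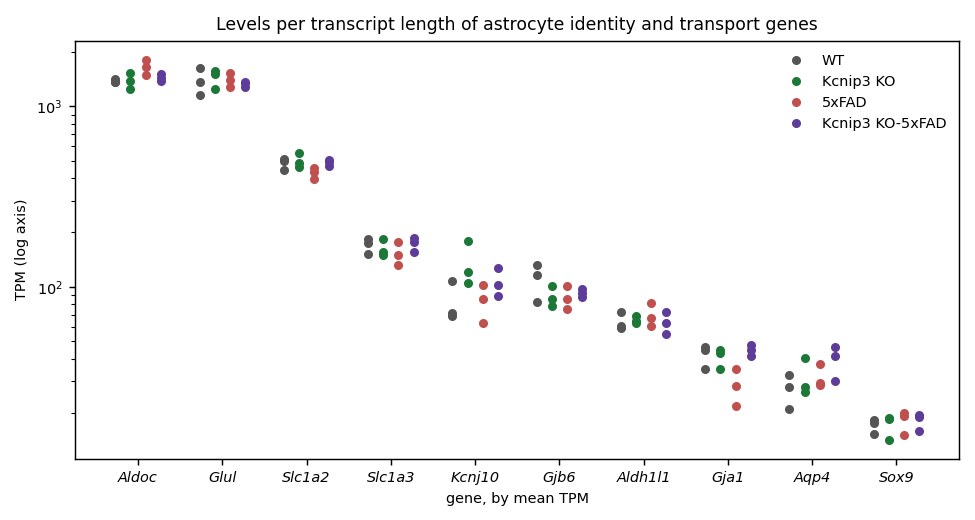
Levels of the 10 genes in TPM (log axis), 1 point per library, coloured by genotype and ordered by mean TPM. Aldoc and Glul sit above 1000 TPM in every library and Sox9 is the lowest of the 10 by mean, and the order of the genes is much the same in the 4 genotypes.

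The ratios of members to each other were compared next, beginning with the glutamate transporters. Slc1a2 over Slc1a3 was 2.86 ± 0.124 in WT and 2.81 ± 0.226 in 5xFAD, with values of 3.06 ± 0.0346 in Kcnip3 KO and 2.82 ± 0.297 in its 5xFAD counterpart on the TPM scale (SD, n = 3). All 3 Kcnip3 KO libraries, at 3.03 to 3.10, lay above all 3 WT libraries, at 2.72 to 2.95. For the connexins, Gja1 over Gjb6 was 0.388 ± 0.0469 in WT and 0.322 ± 0.0284 in 5xFAD, with values of 0.464 ± 0.049 in Kcnip3 KO and 0.486 ± 0.0532 in its 5xFAD counterpart. All 3 5xFAD libraries, at 0.291 to 0.345, were below all 3 Kcnip3 KO-5xFAD libraries, at 0.448 to 0.547, but they overlapped with WT. Glul over Slc1a2 was 3.22 to 3.36 in the 3 5xFAD libraries. It was lower in every library of the other genotypes, at 2.60 to 3.17 in WT, 2.70 to 3.12 in Kcnip3 KO and 2.55 to 2.89 in Kcnip3 KO-5xFAD. How often ratios of other gene pairs separate in this way was not computed. Across the 12 libraries the coefficient of variation of the CPM ran from 5.83% for Slc1a2 and 7.44% for Slc1a3 to 22.3% for Aqp4 and 28.2% for Kcnj10. Kcnj10 also had the widest spread within genotypes, 23.3%, against 5.77% for Slc1a2.

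The first comparison asks how the astrocyte genes stand in 5xFAD hippocampus. Gja1 was lower and Aldoc, Aqp4 and Aldh1l1 were higher in all 3 5xFAD libraries than in all 3 WT libraries, but none of the 10 members passed the test. The quasi-likelihood test of edgeR, adjusted over all genes tested, called 0 of the 10 at an adjusted p under 0.05, where it called 3.53% of all genes (304 higher and 258 lower, or 202 higher and 265 lower with scaling by library size only). The smallest adjusted p of a member was 0.063, and 3 of the 10 had an unadjusted p under 0.05, against 25.3% of all genes. DESeq2 called 2 members, Gja1 and Aldoc, where it called 10.1% of genes, and limma on log2 TPM called 0. Without a filter on low counts edgeR called 3 members and 6.7% of genes, and with a replicate block 2 members and 7.76%. The median log2 fold change was 0.16 over the members and 0.01 over all genes tested. Separation without overlap, seen in 3 members on the higher side and 1 on the lower, was met by 13.7% and 13.9% of all genes.

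The glutamate uptake genes differed little between these 2 groups in CPM. Slc1a2 was at 1999, 1774 and 1900.4 CPM in WT, against 1821, 1849.6 and 1839.8 CPM in 5xFAD, so the 5xFAD values lay inside the WT range. Its log2 fold change was -0.04 ± 0.10 (SE), with a 95% interval from -0.25 to 0.17. Slc1a3 was at 441, 395 and 454 CPM in WT, against 464, 403 and 414 CPM in 5xFAD, again with overlap. The difference was -0.01 ± 0.10, with an interval from -0.22 to 0.20. As ratios of 5xFAD to WT, the intervals ran from 0.840 to 1.124 for Slc1a2 and from 0.857 to 1.15 for Slc1a3. With an offset for transcript length and GC content the values turned to 0.24 for Slc1a2 and 0.13 for Slc1a3, neither called. Over the alternatives without a library left out, the lowest values were -0.18 for Slc1a2 and -0.15 for Slc1a3, and the smallest adjusted p were 0.208 and 0.419. On the TPM scale Slc1a2 was at 485 ± 36.8 TPM in WT and 427 ± 28.8 TPM in 5xFAD. The sign of these small differences thus depended on the processing. Glul was at 1827, 1326 and 1494 CPM in WT, against 1760.2, 1726 and 1706 CPM in 5xFAD. The 5xFAD libraries sat close together within the WT range, and the difference was 0.16 ± 0.12 (-0.09 to 0.41, adjusted p = 0.414).

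Among the channel and gap junction genes, Gja1 stood apart. It was at 135, 109.7 and 137 CPM in WT, against 109.5, 79.8 and 94.0 CPM in 5xFAD. The lowest WT library lay just above the highest 5xFAD library. The log2 fold change was -0.43 ± 0.12 (-0.70 to -0.17), or 0.741-fold, with an edgeR adjusted p of 0.063. DESeq2 gave -0.44 with an adjusted p of 0.0181, and over the alternatives without a library left out the adjusted p ran from 0.0126 to 0.222. With the offset for length and GC the difference was -0.23 (adjusted p = 0.222), and without the 2 libraries whose Thy1 level went against the label it was -0.38 (adjusted p = 0.252). Gjb6, the partner connexin, was at 105, 66.8 and 89.3 CPM in WT, against 82.7, 71.6 and 73.8 CPM in 5xFAD, a difference of -0.19 ± 0.14 (-0.49 to 0.10) with overlapping groups.

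Aqp4 was at 51.1, 39.9 and 58.7 CPM in WT, against 71.0, 63.4 and 59.3 CPM in 5xFAD. The groups were separated by less than 1 CPM, and the difference was 0.37 ± 0.18 (-0.03 to 0.77, adjusted p = 0.225). It was 0.67 with the offset for length and GC (adjusted p = 0.0896) and 0.22 without WT replicate 2, whose level was the lowest of the 12. Kcnj10 was at 173, 112.6 and 112 CPM in WT, against 169, 121 and 150.3 CPM in 5xFAD. Those groups overlapped, with a difference of 0.15 ± 0.22 (-0.33 to 0.63).

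Aldoc was at 1326, 1356 and 1343 CPM in WT, against 1479, 2101 and 1751 CPM in 5xFAD. The WT values lay close together, while the 5xFAD values were spread widely and all lay higher. Its log2 fold change was 0.41 ± 0.12 (0.15 to 0.66), or 1.32-fold, with an edgeR adjusted p of 0.0669. DESeq2 gave an adjusted p of 0.0145, and over the alternatives without a library left out it ran from 0.0145 to 0.177, and it was 0.231 without both libraries whose Thy1 level went against the label. Without 5xFAD replicate 2, the highest library, the value was 0.26 (adjusted p = 0.249), and on the log2 TPM scale it was 0.25 (adjusted p = 0.105). The related aldolase gene Aldoa, used in most cells, was at 2105 to 2596 CPM in WT and 2354 to 3536 CPM in 5xFAD, with a difference of 0.31 ± 0.15, and the ratio of Aldoc to Aldoa on the TPM scale was 0.522 ± 0.0498 in WT and 0.555 ± 0.0228 in 5xFAD. Aldoa shares its symbol with a second, weakly counted entry, and the more abundant was used.

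Of the identity markers, Aldh1l1 separated without overlap and Sox9 did not, and neither was called by edgeR or DESeq2. Aldh1l1 was at 96.98, 80.7 and 78.9 CPM in WT, against 112.1, 96.99 and 98.6 CPM in 5xFAD. The highest WT library and the lowest 5xFAD library were nearly equal, and the difference was 0.26 ± 0.11 (0.03 to 0.50, adjusted p = 0.154). Sox9 was at 22.2, 22.0 and 18.2 CPM in WT, against 24.3, 22.0 and 26.6 CPM in 5xFAD, a difference of 0.23 ± 0.14 (-0.08 to 0.54) with overlap. For all 10 members the 95% interval excluded a change of 2-fold or more in either direction.

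**Figure D2:**
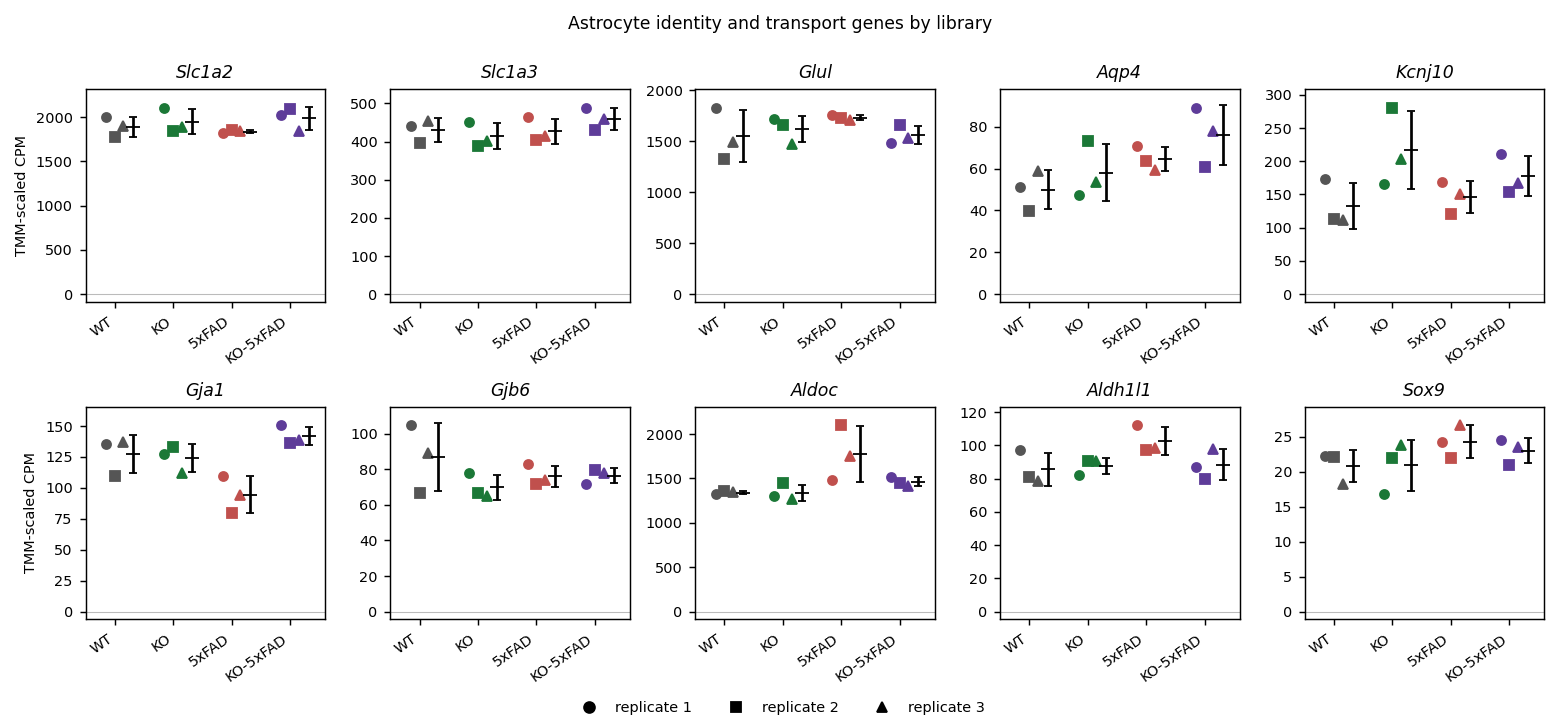
TMM-scaled CPM of each gene by library, with 3 libraries per genotype (symbols mark the replicate number) and the mean ± SD in black. KO stands for Kcnip3 KO and KO-5xFAD for Kcnip3 KO-5xFAD. Gja1 is lowest in the 3 5xFAD libraries, at 79.8 to 109.5 CPM, while Slc1a2 and Slc1a3 keep overlapping ranges in the 4 groups.

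Loss of Kcnip3 alone was compared next, in Kcnip3 KO against WT. No member was called by edgeR, where 0.0503% of all genes were, and DESeq2 (0.186% of genes) and limma on log2 TPM also called 0. Of the 10 members, 2 had an unadjusted p under 0.05, Kcnj10 and Gjb6, against 4.51% of all genes. In no member did the groups separate without overlap, against 4.58% of all genes higher and 4.89% lower. The members' median difference was 0.02, against 0.00 over all genes.

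Kcnj10 had the largest difference, with 173, 112.6 and 112 CPM in WT, against 165, 281 and 204 CPM in Kcnip3 KO. Replicate 2 of the knockout was the highest of all 12 libraries, and replicate 1 lay below the highest WT library. The log2 fold change was 0.71 ± 0.22 (0.23 to 1.19), or 1.64-fold, with an unadjusted p of 0.0073 and an adjusted p of 0.973. The estimate ranged from 0.48 without Kcnip3 KO replicate 2 to 0.95 without WT replicate 1, and it was called only when no filter on low counts was used (adjusted p = 1.51e-06, against 1.02% of genes called). Over the other alternatives the adjusted p was at least 0.221. The summed CPM of 10 oligodendrocyte markers was also highest in that knockout library, at 8889 CPM, with 4645 and 6142 CPM in the other 2 and 3530 to 5867 CPM in WT, and its part in the Kcnj10 difference was not tested. Gjb6 was at 78.0, 66.8 and 65.1 CPM in the knockout, all within or below the WT range, with a difference of -0.31 ± 0.14 (-0.61 to -0.02, adjusted p = 0.999). It was -0.48 without WT replicate 2 and -0.16 without WT replicate 1.

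The other 8 members differed by -0.06 to 0.21. Gja1, at 128, 133 and 112 CPM in the knockout, was -0.04 ± 0.12 (-0.30 to 0.22). Slc1a2, whose gene shares a chromosome with Kcnip3, was at 2107, 1847 and 1893 CPM, or 0.04 ± 0.10 (-0.17 to 0.25), and replicate 1 lay above the WT range while the other 2 lay within it. Glul (1719.8, 1658 and 1472 CPM) and Aldoc (1308, 1444 and 1267 CPM) gave 0.06 ± 0.12 and -0.00 ± 0.12. The 95% interval excluded a 2-fold change in 9 of the 10 members, Kcnj10 being the exception.

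**Figure D3:**
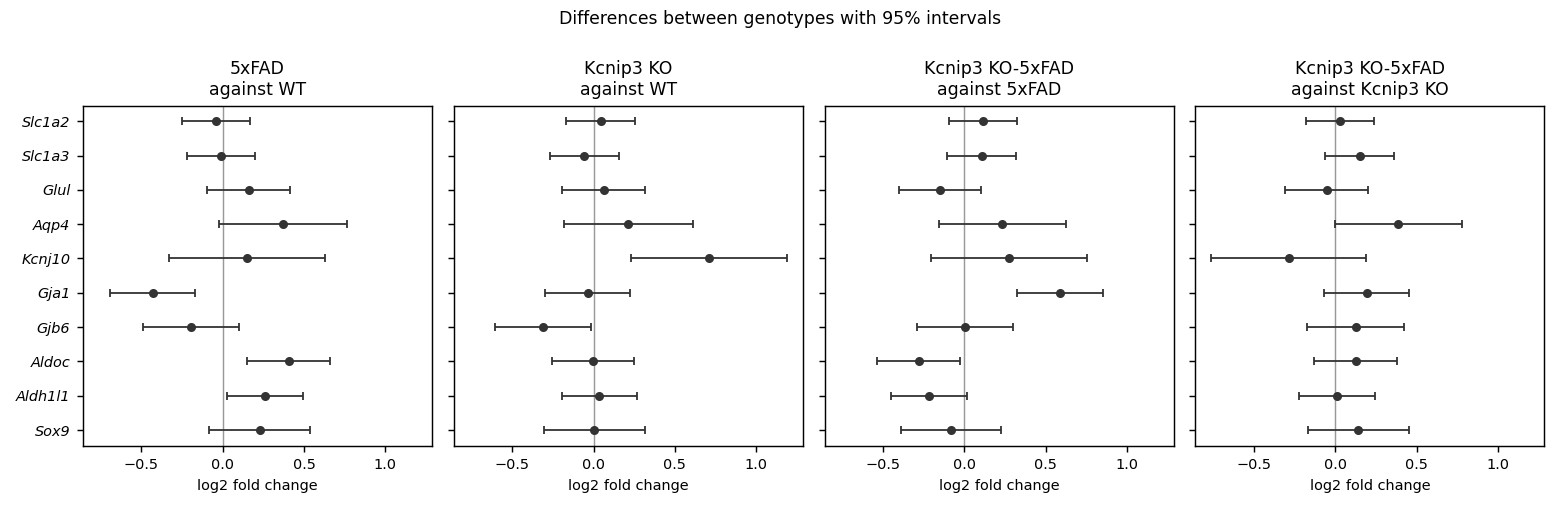
Log2 fold changes of the 10 genes in 4 comparisons, with 95% intervals from the edgeR fit of all 12 libraries and a line at 0. Gja1 is at -0.43 in 5xFAD against WT and at 0.59 in Kcnip3 KO-5xFAD against 5xFAD, and Kcnj10 in Kcnip3 KO against WT has an interval reaching past a 2-fold change.

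The effect of Kcnip3 loss on the 5xFAD background was read from Kcnip3 KO-5xFAD against 5xFAD. This comparison shares the 5xFAD libraries with the first, so a low or high 5xFAD group enters both with opposite sign. Gja1 was at 151, 137 and 139 CPM in Kcnip3 KO-5xFAD, all above the highest 5xFAD library at 109.5 CPM. The difference was 0.59 ± 0.12 (0.32 to 0.85), or 1.503-fold, with an unadjusted p of 0.0003 and an edgeR adjusted p of 0.24. No member was called by edgeR, as against 0.0692% of all genes, and 2 members, Gja1 and Aldoc, had an unadjusted p under 0.05, against 10.4% of all genes. DESeq2 called Gja1 (adjusted p = 0.00891), where it called 0.182% of genes, as did edgeR without a filter on low counts (1.1% of genes), and limma on log2 TPM called 0 members. Over the alternatives without a library left out the adjusted p of Gja1 ran from 0.000653 to 0.468, and its difference from 0.43 to 0.68. Without the 2 libraries whose Thy1 level went against the label the difference was 0.61 (adjusted p = 0.525).

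Aldoc was at 1517, 1454 and 1415 CPM in Kcnip3 KO-5xFAD, overlapping with the lowest 5xFAD library at 1479 CPM. Its difference was -0.28 ± 0.12 (-0.54 to -0.03, adjusted p = 0.453), and -0.14 without 5xFAD replicate 2. Glul, at 1485, 1662 and 1532 CPM, lay below all 5xFAD libraries, but the difference was -0.15 ± 0.12 (-0.40 to 0.10, adjusted p = 0.647). A separation like that of Gja1 was met by 9.05% of all genes on the higher side and one like that of Glul by 7.29% on the lower side. The remaining 7 members differed by -0.22 (Aldh1l1) to 0.27 (Kcnj10), and Gjb6, at 71.7, 79.5 and 77.8 CPM, by 0.01 ± 0.14 (-0.29 to 0.30). The median difference of the members was 0.06, against -0.00 over all genes.

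The 5xFAD effect without Kcnip3 was read from Kcnip3 KO-5xFAD against Kcnip3 KO, which shares libraries with both previous comparisons. No member was called by edgeR, DESeq2 or limma on log2 TPM, and no gene at all was called by edgeR (0.0%), although 1657 genes had an unadjusted p under 0.05 and DESeq2 called 135 (0.866%). Without a filter edgeR also called 0 members, against 2.27% of genes. None of the members had an unadjusted p under 0.05. Aqp4 had the largest difference, with 47.2, 73.3 and 53.5 CPM in Kcnip3 KO and 89.0, 60.6 and 78.0 CPM in Kcnip3 KO-5xFAD. The groups overlapped, and the difference was 0.39 ± 0.18 (-0.00 to 0.78, adjusted p = 0.485), against 0.37 ± 0.18 in 5xFAD against WT. Gja1 was higher in Kcnip3 KO-5xFAD without overlap in CPM but not in TPM, by 0.19 ± 0.12 (-0.07 to 0.45). Of all genes 8.37% were higher without overlap in CPM and 7.25% lower. The other members lay between -0.29 (Kcnj10) and 0.15 (Slc1a3), Slc1a3 being at 489, 430.5 and 459 CPM in Kcnip3 KO-5xFAD.

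Whether the 5xFAD difference itself depended on Kcnip3 was tested by the interaction term. For Gja1 it was 0.62 ± 0.17 (0.25 to 1.00), with an unadjusted p of 0.00282 and an edgeR adjusted p of 0.853. Neither edgeR (0.0% of genes called, 836 with an unadjusted p under 0.05), DESeq2 (6 genes called, 0.0377%) nor limma on log2 TPM called a member, and without a filter on low counts Gja1 was called (adjusted p = 0.0424, with 0.856% of genes called). Over the alternatives without a library left out its adjusted p ran from 0.0424 to 0.981, and it was 0.991 without both libraries whose Thy1 level went against the label. In CPM the 3 5xFAD libraries of Gja1 lay below all 9 others, as for 3.91% of genes tested. On the same scale, 0.296% of genes had 5xFAD differences without overlap in opposite directions with and without Kcnip3. The other 9 interaction terms ran from -0.44 ± 0.31 for Kcnj10 to 0.32 ± 0.20 for Gjb6, each with an interval that included 0.

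The closest relatives of the channel and junction genes were read beside them. Gjb2 encodes connexin 26, which astrocytes and leptomeningeal cells use. It was at 15.8, 12.2 and 10.7 CPM in WT, 11.3, 3.4 and 5.88 CPM in 5xFAD, 7.74, 8.09 and 9.78 CPM in Kcnip3 KO, and 11.5, 10.2 and 13.9 CPM in Kcnip3 KO-5xFAD. The group means were lowest in 5xFAD, though 5xFAD replicate 1 overlapped with WT. Its difference in 5xFAD against WT was -0.91 ± 0.31 (adjusted p = 0.0989 by edgeR and 0.0441 by DESeq2), and its interaction term was 1.38 ± 0.43 (adjusted p = 0.853). Kcnj16 encodes Kir5.1, which assembles with Kir4.1. It was at 16.9, 13.6 and 16.9 CPM in WT, against 11.9, 10.6 and 11.1 CPM in 5xFAD, without overlap. The difference was -0.50 ± 0.16 (adjusted p = 0.0794 by edgeR and 0.0631 by DESeq2), and Kcnip3 KO-5xFAD lay above 5xFAD without overlap, at 12.8 to 15.2 CPM.

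**Figure D4:**
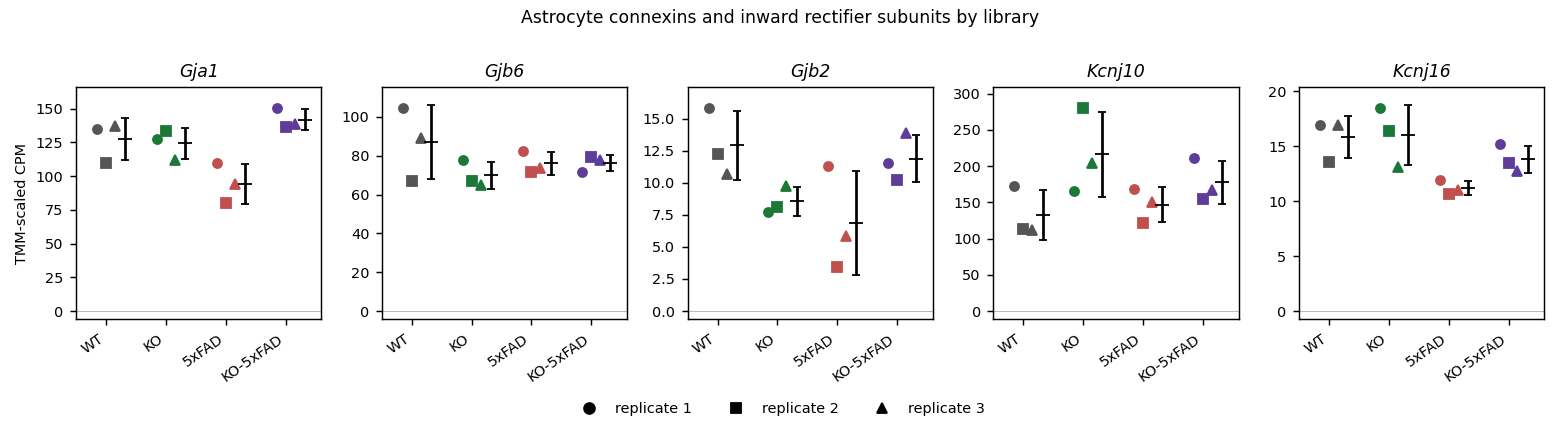
TMM-scaled CPM of the connexin genes Gja1, Gjb6 and Gjb2 and of the inward rectifier subunits Kcnj10 and Kcnj16 by library, with the mean ± SD of the 3 libraries of a genotype in black. Gja1 and Kcnj16 have their lowest 3 libraries in 5xFAD, at 79.8 to 109.5 and 10.6 to 11.9 CPM, whereas Gjb6 and Kcnj10 overlap between 5xFAD and WT.

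Of the relatives of other members, Slc1a1, Slc1a4 and Sox8 differed less in 5xFAD against WT. The neuronal glutamate transporter Slc1a1 differed by 0.01 ± 0.10 in 5xFAD against WT and the neutral amino acid transporter Slc1a4 by 0.10 ± 0.12. Sox8, a glial relative of Sox9, differed by -0.12 ± 0.12. Aldh1l2, the mitochondrial relative of Aldh1l1, was rare, at 0.638 to 3.68 CPM over the 12 libraries. It differed by 0.59 ± 0.45 in 5xFAD against WT (edgeR adjusted p = 0.426). In Kcnip3 KO against WT it was higher without overlap, by 0.91 ± 0.43 (edgeR adjusted p = 0.999). None of these 4 was called in any of the 5 comparisons by edgeR.

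The wider pathways were read from 7 lists of further genes. In 5xFAD against WT, edgeR called 2 of 15 genes for water, potassium and endfeet, both higher. Mlc1, which encodes a membrane protein of astrocyte endfeet, was at 231 to 245 CPM in WT and 319 to 405 CPM in 5xFAD, a log2 fold change of 0.58 ± 0.10 (adjusted p = 0.0216). Slc14a1, which encodes a urea transporter, was at 10.6 to 19.4 CPM in WT and 27.1 to 29.6 CPM in 5xFAD, or 1.02 ± 0.26 (adjusted p = 0.0489). Both were still called without the 2 libraries whose Thy1 level went against the label. The median of the 15 genes was 0.14, with 11 of them higher.

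In the other 6 lists edgeR called 0 genes in 5xFAD against WT. Over all genes in that comparison, 25.3% had an unadjusted p under 0.05, edgeR called 3.53% and DESeq2 called 10.1%. These shares apply to all lists here and to the cell-type lists below. For the uptake and metabolism of glutamate, GABA and glycine, 0 of 13 were called (4 with an unadjusted p under 0.05, 2 called by DESeq2, median -0.03). Slc6a11, which encodes a GABA transporter, differed by -0.03 ± 0.23. Of 9 further connexins and pannexins 0 were called (2 at p under 0.05, 1 by DESeq2, median 0.20), with 0.40 ± 0.16 for Panx2 and 0.20 ± 0.22 for Gjc3. Of 12 transcription factors of astrocytes 0 were called (1 at p under 0.05, 0 by DESeq2, median 0.01), with 0.08 ± 0.18 for Nfix and -0.13 ± 0.12 for Nfib. For glycolysis and glycogen 0 of 19 were called (5 at p under 0.05, 1 by DESeq2, median 0.14, 14 of 19 higher), with 0.25 ± 0.12 for Pkm. For folate and one-carbon metabolism 0 of 10 were called (3 at p under 0.05, 0 by DESeq2, median 0.24), with 0.23 ± 0.09 for Mthfd1. Of 23 other astrocyte markers 0 were called (8 at p under 0.05, 4 by DESeq2, median 0.04), with 0.38 ± 0.12 for Ndrg2 and -0.11 ± 0.11 for Sparcl1. Over these lists and the cell-type lists below, 194 genes were tested, and edgeR called 0 of them in each of the other 4 comparisons. An unadjusted p under 0.05 was reached by 13 in Kcnip3 KO against WT, 21 in Kcnip3 KO-5xFAD against 5xFAD, 28 in Kcnip3 KO-5xFAD against Kcnip3 KO and 13 for the interaction, and DESeq2 called 0, 1, 8 and 1 of them in that order. Over all genes tested, the shares with an unadjusted p under 0.05 were 4.51%, 10.4%, 10.4% and 5.26%, and DESeq2 called 0.186%, 0.182%, 0.866% and 0.0377%.

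Reactive astrocyte genes were set beside the identity genes. Of 20, 19 passed the filter, and edgeR called 0 in 5xFAD against WT (8 at p under 0.05, 4 by DESeq2), with a median of 0.72. Gfap, the intermediate filament gene of reactive astrocytes, was at 427, 375 and 896 CPM in WT, against 2189, 2719 and 2360.4 CPM in 5xFAD, where all 3 libraries were higher, a difference of 2.098 ± 0.586 (adjusted p = 0.0745). The complement gene C4b was at 62.8 to 143 CPM in WT and 340.5 to 410.2 CPM in 5xFAD, or 1.96 ± 0.57 (adjusted p = 0.0835). The high WT value is that of the library whose Thy1 level went against the label. Without that library and its Kcnip3 KO-5xFAD counterpart, edgeR called Gfap (2.59, adjusted p = 0.0102), C4b (2.42, adjusted p = 0.000105) and Tgm1 (2.86, adjusted p = 0.0227) higher, and still 0 of the 10 identity genes in any of the 5 comparisons. The shares of all genes then called were 1.3% for 5xFAD against WT, 0.0435% for Kcnip3 KO against WT, 0.0373% for Kcnip3 KO-5xFAD against 5xFAD, 1.3% for Kcnip3 KO-5xFAD against Kcnip3 KO and 0.00622% for the interaction. In Kcnip3 KO-5xFAD against Kcnip3 KO it then called Gfap (1.91, adjusted p = 0.0304), C4b, Tgm1 and Cxcl10 higher. Tgm1 and Cxcl10 were near the floor. With all libraries, Tgm1 was at 0.213 to 1.36 CPM in WT, 2.17 to 2.84 CPM in 5xFAD and 0.121 to 0.345 CPM in Kcnip3 KO. Cxcl10 was at 0.115 to 0.523 CPM in Kcnip3 KO.

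Summed over each list, the identity genes held 5282 to 6175 CPM in WT, 6093 to 6534 CPM in 5xFAD, 5582 to 6103 CPM in Kcnip3 KO and 5832 to 6173 CPM in Kcnip3 KO-5xFAD. The 4 ranges were near each other, and WT and 5xFAD overlapped. Most of this sum comes from Slc1a2, Glul and Aldoc, at means of 1916, 1614 and 1480 CPM over the 12 libraries. Slc1a3 came next at 432 CPM, so the sum says little about the less abundant members. The reactive genes held 627 to 1281 CPM in WT and 2951 to 3472 CPM in 5xFAD, without overlap, and 869 to 3854 CPM in Kcnip3 KO-5xFAD, the lowest being the library whose Thy1 level went against the label.

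Markers of the other cell types moved as follows beside these values. Summed over 10 microglial markers, the level was 407 to 717 CPM in WT and 1332 to 1792 CPM in 5xFAD, and edgeR called 6 of the 10 higher, among them Csf1r (1.02 ± 0.21), Cx3cr1 (1.02 ± 0.21) and Tmem119 (0.65 ± 0.13). DESeq2 called 8 of the 10 and limma on log2 TPM called 0. The oligodendrocyte markers summed to 3530 to 5867 CPM in WT and 5973 to 8312 CPM in 5xFAD, without overlap. Of them 0 of 10 were called (6 at p under 0.05, 2 by DESeq2), and the myelin genes Mbp and Mobp differed by 0.73 ± 0.26 and 0.57 ± 0.25. Of 12 neuronal markers edgeR called 1, Snap25, lower (-0.70 ± 0.11, adjusted p = 0.0173). An unadjusted p under 0.05 was reached by 4 of the 12, DESeq2 called 2 and limma on log2 TPM called 1. The neuronal sums overlapped, at 9454 to 10463 and 9213 to 11326 CPM. The sums for oligodendrocyte precursors were 248 to 283 and 290.0 to 339 CPM, without overlap. Of them 0 of 6 were called (5 at p under 0.05, 1 by DESeq2), and Olig1 differed by 0.40 ± 0.15. Sums overlapped for endothelial and mural cells (325 to 480.0 and 406 to 433 CPM), ependymal cells (27.6 to 41.6 and 35.9 to 66.0), choroid plexus (102 to 3865 and 220.1 to 8954), meningeal fibroblasts (88.5 to 145 and 76.7 to 123) and neural stem and progenitor cells (137 to 154 and 123 to 167). In those 5 lists 0 genes were called by edgeR or DESeq2, and an unadjusted p under 0.05 was reached by 1 ependymal, 1 meningeal and 1 stem and progenitor gene and by none of the endothelial, mural or choroid plexus genes. Markers at 0 in at least 1 library were Steap4 and Ptx3 of the reactive list and Cst7 of the microglial list. What part these cells have in the values of Gja1, Aldoc and the other members was not tested.

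**Figure D5:**
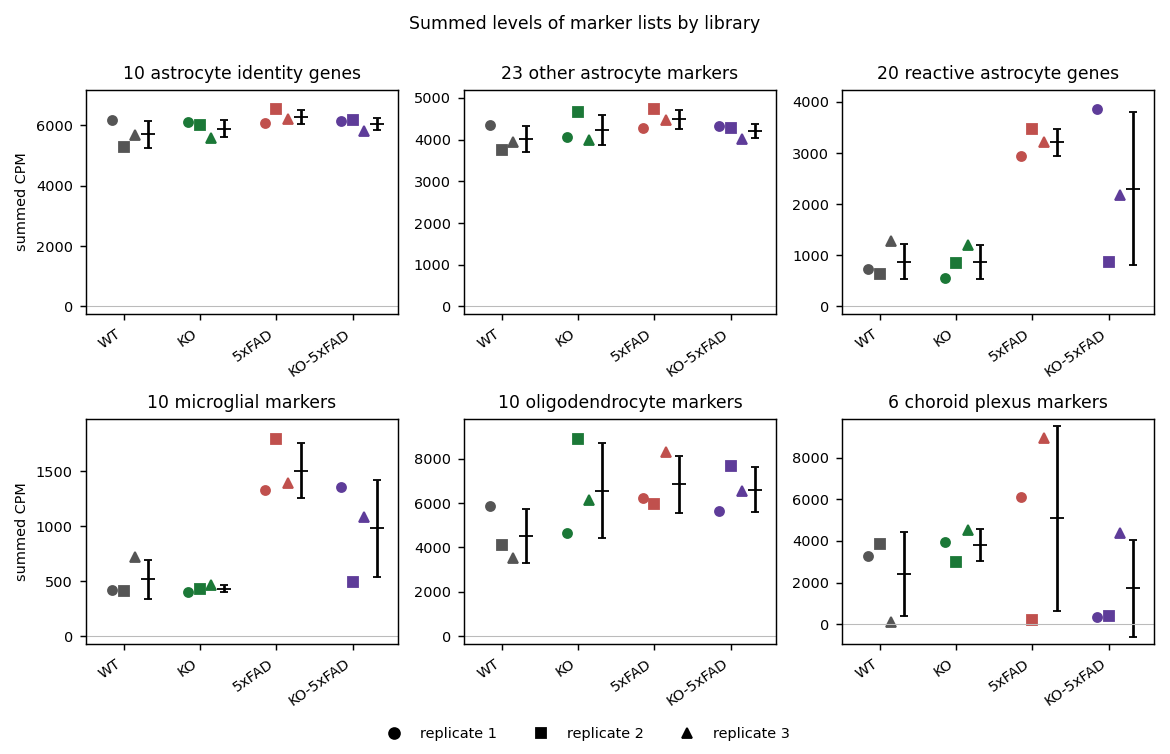
Summed TMM-scaled CPM per library of the 10 identity genes and of 5 other marker lists, with the mean ± SD of the 3 libraries of a genotype in black. The sum of the identity genes, most of it from Slc1a2, Glul and Aldoc, stays between 5282 and 6534 CPM in the 12 libraries. The reactive, microglial and oligodendrocyte sums in 5xFAD lie above all WT values. The choroid plexus sum is 405 CPM or less in 4 libraries of 3 genotypes.

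Across the 12 libraries the 10 genes were only loosely related in level. Of the 45 pairs, 29 had a positive Pearson r of log2 CPM, with a median of 0.21 that was 0.23 after removal of the group means. The highest r was 0.65, between Aldh1l1 and Sox9, and the lowest was -0.70, between Gja1 and Aldoc. These are descriptions over 12 libraries that share a dissection, a depth and a scaling factor across genes. The tested genes whose profile was most like the mean of the members' standardised profiles were Xlr (r = 0.93), Wipf1 (0.89), Lrrc1 (0.89), Adi1 (0.88) and Adk (0.86), and among the members themselves the likeness to that mean ran from 0.17 for Aldoc to 0.73 for Aqp4.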

How the data were processed

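Total RNA of hippocampus was sequenced after TruSeq mRNA library preparation, per the labels' protocols. Reads were handled with HISAT2 2.1.0, FastQC 0.11.9, featureCounts, edgeR 3.38.4 and R 4.2.1 on mm10, according to the submitters' processing notes. Not given in the sources used here are the annotation, the strand setting and the transcript lengths used for TPM. The deposited table used for every test holds raw read counts of 55385 genes. The deposited second table holds log2 TPM of 16120 genes and served for levels between genes and as an alternative. Symbols and positions came from GENCODE M21 (GRCm38), which matched 55144 genes, and promoters from RefSeq. The 10 genes, the other lists and the tests were chosen with earlier results of these data known.

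All 12 libraries were fitted in edgeR 4.0.16 (R 4.3.3) by a model with a mean for each genotype, with TMM scaling, filterByExpr and a robust quasi-likelihood test. Benjamini-Hochberg adjustment ran over the 15905 genes tested, and adjusted p-values are from this fit unless another tool is named. Intervals are 95% intervals of the log2 fold change. Across genes, libraries of a genotype varied with a common biological coefficient of 0.144. The fit was tested on simulated data. Alternatives were DESeq2 1.42.0, its size factors in edgeR, library size only, no filter, limma 3.58.1 on log2 TPM, only the compared groups, a replicate block, an offset for length and GC, and leaving out each library. Leaving out both libraries whose Thy1 level went against the label was added after their levels were known.

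The 10 members and their relatives (Slc1a1, Slc1a4, Gjb2, Kcnj16, Aldoa, Aldh1l2, Sox8) were named throughout. Of each other list up to 3 called genes with the smallest p were named, or up to 2 with the highest CPM where none was called, and the 5 genes most like the members. Tgm1, Cxcl10, Steap4, Ptx3, Cst7, Ttr and the hippocampal markers were named after their values were seen. Some genes that this rule would name are not reported here.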

Additional observations from a re-analysis of the deposited data

Results flagged for a closer look

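Gja1 was the only one of the 10 members whose groups separated without overlap in opposite directions in 5xFAD with and without Kcnip3. Every 5xFAD library lay below every WT library (log2 fold change -0.4315), and every Kcnip3 KO-5xFAD library lay above every Kcnip3 KO library (0.1931). Such a pair of separations in opposite directions occurred in 47 of the 15905 genes tested, or 0.296%. The interaction term of the edgeR fit, 0.62 ± 0.17, had an adjusted p of 0.853 and so did not pass the test. No cause was tested.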

How the results depend on the processing

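The count of called members was 0 in every comparison of the edgeR fit and changed as follows. For 5xFAD against WT it was 3 without a filter (Gja1, Aldoc and Aqp4), where 6.7% of all genes were called. It was 2 with DESeq2 (10.1% of genes) and 2 with the replicate block (7.76%), Gja1 and Aldoc in both. With single libraries left out it was 0 to 2. It was 1 without WT replicate 2, where 377 of all genes were called, and 2 without 5xFAD replicate 1, where 2117 were. With all 12 libraries 562 genes were called. Without a filter it was 1 for Kcnip3 KO against WT (Kcnj10, with 1.02% of all genes called). It was also 1 for Kcnip3 KO-5xFAD against 5xFAD (Gja1, 1.1% of genes) and 1 for the interaction (Gja1, 0.856%). DESeq2 gave 1 for Kcnip3 KO-5xFAD against 5xFAD (Gja1, 0.182% of genes). Of 1040 values of the 10 members in 50 member comparisons, 968 kept direction and side of the threshold, 14 were newly called and 58 turned in sign, none larger than 0.2405 in size and none called. The cause was not tested.

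The turned values were as follows. In 5xFAD against WT, Slc1a2 was 0.24 with the length and GC offset, and Slc1a3 was 0.0035 without a filter, 0.125 with that offset and 0.030 without both libraries whose Thy1 went against the label. In Kcnip3 KO against WT, without both of those libraries, Aldh1l1 was -0.019, Gja1 0.0196 and Sox9 -0.085. There Slc1a2 was -0.022 with the length and GC offset, and Sox9 was -0.0135 by library size only, -0.0047 by limma, -0.0014 with the replicate block and -0.036 with the length and GC offset. In Kcnip3 KO-5xFAD against 5xFAD, Slc1a2 was -0.12 and Slc1a3 -0.00038 with the length and GC offset, Gjb6 -0.011 without a filter and -0.0235 without both libraries, and Sox9 0.00048 by limma. In Kcnip3 KO-5xFAD against Kcnip3 KO, limma gave -0.057 for Aldh1l1 and -0.035 for Slc1a2, which was -0.011 without both libraries. The interaction was -0.24 for Aqp4 and -0.097 for Slc1a2 with the length and GC offset, and for Sox9 0.0051 by limma and 0.064 without both libraries. Leaving out single libraries gave, in 5xFAD against WT, -0.078 to 0.030 for Slc1a3. In Kcnip3 KO against WT it gave -0.019 to 0.136 for Aldh1l1, -0.016 to 0.085 for Slc1a2, -0.047 to 0.197 for Glul, -0.143 to 0.033 for Gja1, -0.103 to 0.139 for Sox9 and -0.059 to 0.036 for Aldoc. It gave -0.035 to 0.069 for Gjb6 in Kcnip3 KO-5xFAD against 5xFAD, and -0.071 to 0.073 for Aldh1l1 and -0.018 to 0.087 for Slc1a2 in Kcnip3 KO-5xFAD against Kcnip3 KO. For the interaction it gave -0.115 to 0.222 for Aqp4 and -0.223 to 0.019 for Sox9.

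Replicate numbers are shared by the labels, but same-numbered libraries correlated at -0.32 to 0.246 in their deviations from the group means, so the replicate block rests on numbers only. With it 1234 genes were called in 5xFAD against WT, against 562 without. That count was 1421 with DESeq2, 2131 without a filter, 238 with limma on log2 TPM, 107 with the length and GC offset, 209 without both libraries and 1 to 2117 when single libraries were left out. Each group had 3 libraries, and leaving out 1 assumes that the remaining 2 vary like the other groups.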
